A study of Mus musculus with 6 samples.

Results

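Aminoacyl-tRNA synthetases are the enzymes that join each amino acid to its tRNA. The family described here comprises 35 genes out of 57132 in the deposited table, 19 for enzymes of the cytosol and 16 for enzymes of mitochondria. They were chosen by gene symbol, after Ensembl identifiers without their version were looked up in GENCODE mouse M39 (GRCm39), and all 35 were found. Messenger RNA was sequenced from dendritic cell cultures that were derived from C57BL/6 bone marrow (female mice, 6 to 8 weeks old) with GM-CSF (15 ng/mL) and dialyzed serum. One group, 0Q, received medium alone and the other, 100Q, received 100 nM queuine, with feeding on days 2 and 4, RNA extraction on day 5 and 3 libraries per group. The cultures were plated in triplicate, and nothing states that the wells came from separate mice, so p-values measure the spread between these wells, which may be technical.

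Queuine is a nucleobase that mammals obtain from diet and gut microbes. It is exchanged for the wobble guanine of tRNAs that decode Asn, Asp, His and Tyr, which then carry queuosine. Nars1, Hars1 and Yars1 charge such tRNAs with Asn, His and Tyr in the cytosol, and Nars2, Hars2 and Yars2 do so in mitochondria. The remaining members charge tRNAs without queuosine. Among the cytosolic enzymes, Eprs1, Iars1, Kars1, Lars1, Mars1, Qars1 and Rars1 belong to the multisynthetase complex. Gars1 and Kars1 each give a cytosolic and a mitochondrial form and are counted as cytosolic here. Many cytosolic synthetase genes are targets of ATF4, a transcription factor of the amino acid response.

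The promoters that carry the ATF4 motif are shown first, since amino acid response genes are described beside the synthetases. The sequence TGATGCAA, the core of the amino acid response element, was searched on both strands of RefSeq promoter windows (GRCm38.p6) running from 250 bases before to 50 bases after the start. Of 35 members, 26 had at least 1 window. The 9 without were Nars1, Hars1, Cars1, Lars1, Rars1, Vars1, Wars1, Hars2 and Pars2, which were not searched. The motif occurred in 4 of the 12 cytosolic members with a window (Yars1, Aars1, Iars1 and Tars1) and in 0 of the 14 mitochondrial members, and in 0.895% of all 32851 windows in the table. The windows lie at chr4:129189653-129189952 (plus strand) for Yars1, chr8:111033592-111033891 (plus strand) for Aars1, chr13:49681880-49682179 (plus strand) for Iars1 and chr15:11399609-11399908 (minus strand) for Tars1. Each is printed 5′ to 3′ along its gene, with the motif, or its reverse complement, in capitals.
Yars1: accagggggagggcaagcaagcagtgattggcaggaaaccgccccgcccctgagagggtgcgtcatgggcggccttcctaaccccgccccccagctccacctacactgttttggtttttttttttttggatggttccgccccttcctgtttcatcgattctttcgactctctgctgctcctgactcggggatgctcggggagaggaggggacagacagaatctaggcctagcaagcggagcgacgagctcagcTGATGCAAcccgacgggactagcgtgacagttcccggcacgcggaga
Aars1: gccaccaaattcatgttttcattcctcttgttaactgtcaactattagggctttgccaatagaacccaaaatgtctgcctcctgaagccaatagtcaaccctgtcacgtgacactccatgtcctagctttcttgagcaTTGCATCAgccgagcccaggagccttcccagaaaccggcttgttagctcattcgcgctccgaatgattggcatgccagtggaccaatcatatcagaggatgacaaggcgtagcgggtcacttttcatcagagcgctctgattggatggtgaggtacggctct
Iars1: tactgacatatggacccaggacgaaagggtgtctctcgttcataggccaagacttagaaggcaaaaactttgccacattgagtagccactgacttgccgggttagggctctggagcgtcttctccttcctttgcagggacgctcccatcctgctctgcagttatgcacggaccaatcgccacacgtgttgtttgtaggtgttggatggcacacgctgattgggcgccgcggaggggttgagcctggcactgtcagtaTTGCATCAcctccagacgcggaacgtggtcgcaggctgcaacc
Tars1: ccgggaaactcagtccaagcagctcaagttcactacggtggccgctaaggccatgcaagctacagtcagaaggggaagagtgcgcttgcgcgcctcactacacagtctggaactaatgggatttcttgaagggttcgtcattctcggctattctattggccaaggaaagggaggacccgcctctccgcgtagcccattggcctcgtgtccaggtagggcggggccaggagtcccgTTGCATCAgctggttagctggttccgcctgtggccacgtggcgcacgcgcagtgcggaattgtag
With the first of the last 50 bases counted as 0, the match begins at 3 in Yars1, -112 in Aars1, 7 in Iars1 and -15 in Tars1. A match describes letters and shows no binding. Only these exact 8 letters were searched, so a window without a match was not examined for variants of the motif.

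Synthetase mRNAs also contain the codons that queuosine tRNAs read, which are the NAU and NAC codons for Asn, Asp, His and Tyr. Stretches of 20 codons with the most of them are shown for the Tyr pair and the mitochondrial Asn enzyme, from the canonical GENCODE M39 coding sequences, with these codons in capitals. They span coding bases 187 to 246 of Yars1, 634 to 693 of Yars2 and 499 to 558 of Nars2.
Yars1: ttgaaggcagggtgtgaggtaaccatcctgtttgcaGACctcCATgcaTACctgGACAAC
Yars2: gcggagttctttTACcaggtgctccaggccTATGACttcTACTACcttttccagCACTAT
Nars2: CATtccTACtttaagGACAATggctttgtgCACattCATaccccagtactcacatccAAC
The Yars1 stretch has 5 such codons, 1 of them ending in U in the mRNA. The Yars2 and Nars2 stretches have 7 each, of which 2 and 3 end in U.

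Library totals ran from 3675918 to 6755367 counts in 0Q and from 4484785 to 19386533 in 100Q, and 33 to 35 members were detected per library. Values are CPM, counts scaled to a common library size, and 3 counts amounted to between 0.159 CPM in the largest library and 0.833 CPM in the smallest (counting error only). Deviations from the mean of the 6 libraries correlated with transcript length across genes most strongly in 0Q replicate 1 (Spearman rho -0.21). The value was 0.14 in 0Q replicate 2, 0.13 in 100Q replicate 2 and -0.05 to 0.07 in the others. Since all share 1 mean, these values are not independent. The cultures were mixed. Neutrophil markers summed to 16879 to 19798 CPM in 0Q and 14077 to 17157 CPM in 100Q, with all 8 estimates below 0 (50% of all tested genes) and 3 lower at an unadjusted p under 0.05 (1.16% of all tested genes). All 5 markers of basophils, mast cells and eosinophils were also estimated below 0. The 7 macrophage and monocyte markers summed to 865 to 1049 CPM in 0Q and 846 to 949 CPM in 100Q. Of these, 5 were tested, with 3 estimates above 0 and 2 below. Dendritic cell markers summed to 899 to 1054 CPM in 0Q and 938 to 1063 CPM in 100Q, with 6 of 8 estimates above 0. Those below were Ccr7 at -0.18 and H2-Ab1 at -0.09, while H2-Aa stood at 0.01. Itgax (CD11c) had the smallest p of this list, at a log2 estimate of 0.51 (SE 0.19, edgeR unadjusted p = 0.0174, adjusted p = 0.999). All its 100Q libraries lay above all 0Q libraries, as for 4.41% of all tested genes. Of those genes, 1.77% were higher in 100Q at an unadjusted p under 0.05. Of 3 T cell markers, Cd3e was at 0 in all libraries, Cd3d had 1 to 35 counts and Cd4 at most 3. The part of this mixture in the synthetase values was not tested, and in bulk RNA fewer cells of a type and less RNA per cell cannot be told apart.

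Cytosolic synthetase mRNAs were far more abundant than mitochondrial ones. Levels between genes are compared as CPM per kilobase of canonical transcript, averaged over 6 libraries. The median was 11.1 for cytosolic members, 0.832 for mitochondrial members and 16.1 for the multisynthetase complex. Farsb, the beta subunit of cytosolic phenylalanyl-tRNA synthetase, stood highest at 74.6, ahead of Qars1 (Gln) at 38.96 and Kars1 (Lys) at 34.9. Lowest were the mitochondrial Sars2 (Ser) at 0.377, Vars2 (Val) at 0.150 and Aars2 (Ala) at 0.139. All 8 highest members were cytosolic and 10 of the 12 lowest mitochondrial, the exceptions being Cars1 (Cys) at 1.32 and Vars1 (Val) at 0.483. The gap between the cytosolic and mitochondrial medians depends on the length used and is narrower by coding length. Canonical transcripts have, for example, 11294 bases in Mars2 and 7554 in Cars2, with coding sequences of 1758 and 1656 bases.

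**Figure D1:**
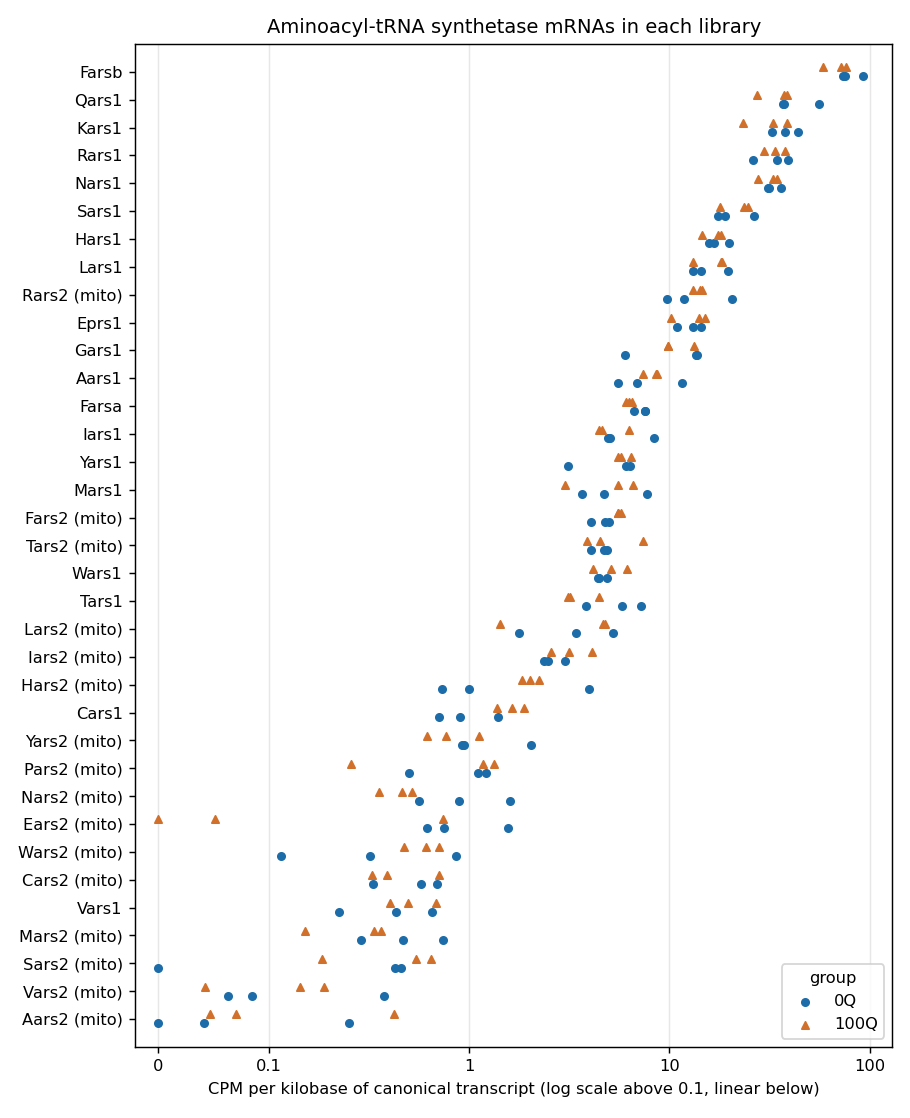
Level of each of the 35 mRNAs in CPM per kilobase of canonical transcript (horizontal axis, log scale above 0.1 and linear below), 1 point per library, circles for 0Q and triangles for 100Q. Members are ordered by their mean, from Aars2 at 0.139 to Farsb at 74.6, and the lower end is mostly mitochondrial.

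Most neighbours in this order could not be ranked, since only 2 of 34 neighbouring pairs (Farsb above Qars1, and Nars1 above Sars1) had 6-library ranges that did not overlap. Farsb libraries gave 203, 162 and 167 CPM without queuine and 158, 129 and 168 with it. For Qars1 these were 156, 104 and 105 CPM and 105, 76.7 and 108 CPM. Kars1 gave 105, 77.99 and 90.6 CPM against 92.01, 55.6 and 78.4 CPM. In each of these 3 genes 0Q replicate 1 was the highest library and 100Q replicate 2 the lowest, and the groups overlapped. The least abundant members rested on few reads. Aars2 had 1, 8 and 0 counts in 0Q against 10, 1 and 6 in 100Q. Vars2 had 2, 2 and 6 counts against 1, 4 and 12, and Sars2 7, 10 and 0 against 3, 8 and 38. These 3 fell under the filter on low counts and were not tested.

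Both a cytosolic and a mitochondrial enzyme were among the members for 13 amino acids. For 12 of them the cytosolic mRNA was the higher per kilobase in all 6 libraries, with ratios of means from 1.903 for Ile and 2.39 for Arg to 57.2 for Ser and 58.3 for Ala. Asn had 43.9, His 8.71 and Tyr 5.19. The size of these ratios depends on the length used, and for Ile and Cys so does the order in single libraries. In 100Q replicate 2 Iars2 had 23.2 CPM and Iars1 20.4, with longest coding sequences of 3048 and 3915 bases. In 0Q replicate 2 Cars2 had 5.22 CPM and Cars1 4.79, with longest coding sequences of 1959 and 2565 bases. Canonical transcripts have 6933 bases in Nars2 and 6748 in Yars2, with coding sequences of 1431 and 1416 bases. For Nars1 and Yars1 the transcripts have 2745 and 2913 bases and the coding sequences 1677 and 1584. The Asn and Tyr ratios are therefore smaller by coding length. Thr was the exception by canonical transcript length, with Tars1 at 4.602 and Tars2 at 4.903 and the cytosolic gene higher in 3 libraries. These transcripts have 4005 bases in Tars1 and 2523 in Tars2. By the other lengths the order of this pair turned around. Counted from the highest member, Tars1 ranked 15 and Tars2 20 by coding length, and 13 and 19 by merged exons.

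**Figure D2:**
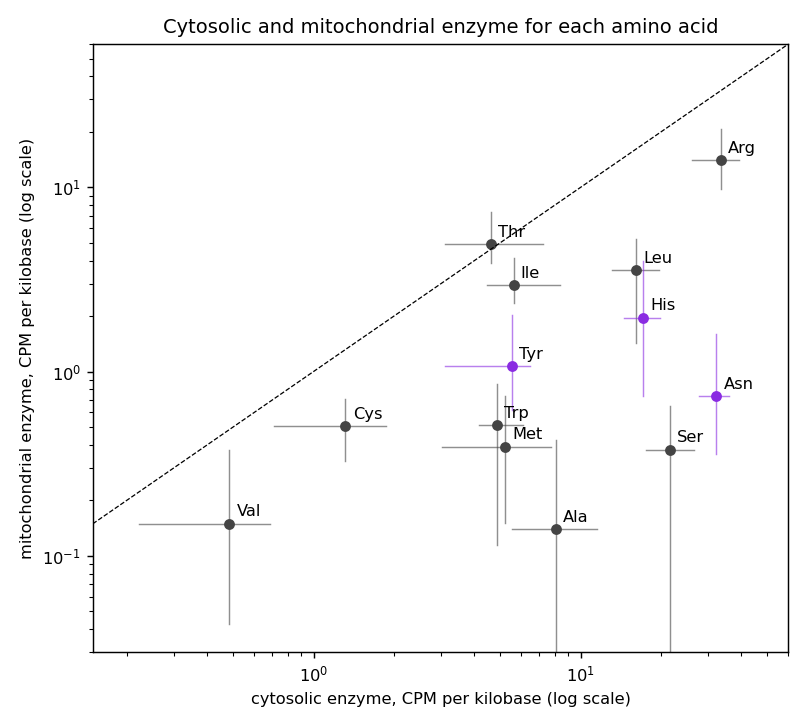
Mitochondrial (vertical axis) against cytosolic enzyme (horizontal axis) for 13 amino acids, in CPM per kilobase on log scales, with points at means and lines over the range of 6 libraries, cut at the lower edge for Ala and Ser, where 1 library is at 0, and Asn, His and Tyr in purple. By canonical transcript length, Thr, at 4.602 and 4.903, lies nearest the dashed line of equal level and the others lie below it.

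Queuine was followed by no change in any synthetase mRNA that passed the test. In the fit over 10554 genes, 32 members were tested. By edgeR's quasi-likelihood test 0 of 32 had an adjusted p under 0.05, as did 0% of all genes tested, in either direction (adjusted p = 0.999 for each member). At an unadjusted p under 0.05 there were 0 members, against 2.93% of all genes (1.77% higher and 1.16% lower in 100Q). DESeq2 and limma-voom also called 0 members. Each had 1 of 32 members at an unadjusted p under 0.05, beside 356 of 10554 genes by DESeq2 and 302 of 10554 by limma-voom. Estimates lay above 0 for 15 members and below for 17, beside 50% below over all genes, and their median was -0.01 on the log2 scale, beside 0.00. Groups did not overlap for 1 member above (Fars2, against 4.41% of genes) and 2 below (Nars2 and Farsa, against 3.84%), or 3 in all against 8.24%.

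**Figure D3:**
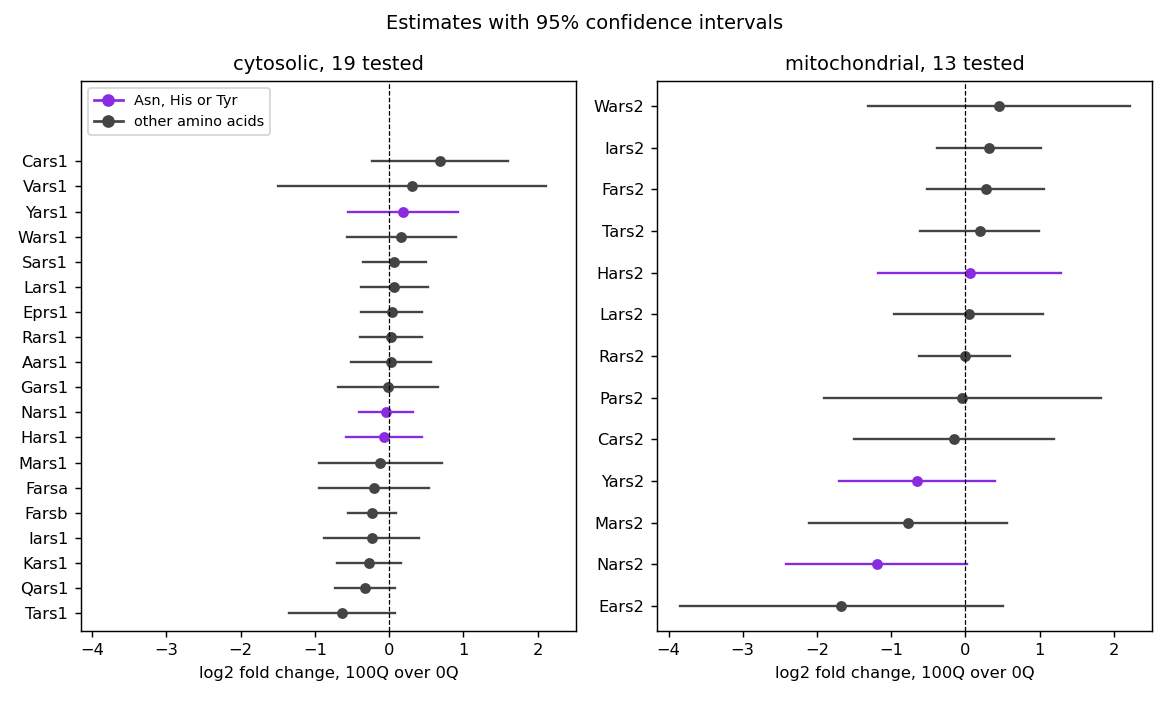
Log2 fold change of 100Q over 0Q (horizontal axis) for 19 cytosolic and 13 mitochondrial members, with points at the edgeR estimates, bars over 95% confidence intervals, and the enzymes for Asn, His and Tyr in purple. Every interval shown includes 0, from Ears2 at -1.67 to Cars1 at 0.69.

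Enzymes for Asn, His and Tyr split 2 above and 4 below 0 (median -0.06), and the 26 tested enzymes for other amino acids 13 and 13 (median 0.01). Nars1 (ENSMUSG00000024587, chromosome 18, 64632718 to 64649723, GRCm39) charges cytosolic tRNA-Asn. Its libraries gave 98.6, 85.9 and 85.6 CPM without queuine and 90.5, 76.04 and 94.3 with it. The groups overlapped and the estimate, -0.05 (SE 0.17, 95% interval -0.41 to 0.32), was smaller than its error. Hars1 (ENSMUSG00000001380, chromosome 18, 36899580 to 36916258), for tRNA-His, gave 31.5, 39.5 and 33.3 CPM against 28.9, 34.97 and 35.8. Again the groups overlapped, at an estimate of -0.07 (SE 0.24, 95% interval -0.58 to 0.45). Yars1 (ENSMUSG00000028811, chromosome 4, 129082752 to 129114906), for tRNA-Tyr, gave 9.07, 18.5 and 17.8 CPM against 16.2, 16.6 and 18.8. Only 0Q replicate 1 was low, and the estimate of 0.19 (SE 0.35) became -0.07 without it. Summed, these 3 enzymes averaged 139.9 ± 3.64 CPM in 0Q against 137 ± 10.8 CPM (SD, n = 3 each).

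The mitochondrial counterparts were lower and varied more between libraries. Nars2 (ENSMUSG00000018995, chromosome 7, 96600689 to 96717097), for mitochondrial tRNA-Asn, gave 11.1, 6.21 and 3.89 CPM without queuine and 2.47, 3.58 and 3.22 with it. All 100Q libraries lay below all 0Q libraries, the closest being 3.58 and 3.89 CPM, from 17 and 14 counts. The estimate was -1.20 (SE 0.58, 95% interval -2.42 to 0.02), with an edgeR unadjusted p of 0.0543 and an adjusted p of 0.999, and -0.71 without 0Q replicate 1. Yars2 (ENSMUSG00000022792, chromosome 16, 16120366 to 16157367), for mitochondrial tRNA-Tyr, gave 6.23, 13.7 and 6.39 CPM against 4.18, 7.58 and 5.18. Here 0Q replicate 2 was high, the groups overlapped, and the estimate of -0.65 (SE 0.50) was -0.17 without that library. Hars2 (ENSMUSG00000019143, chromosome 18, 36916061 to 36925615), for mitochondrial tRNA-His, gave 2.46, 13.3 and 3.33 CPM against 7.41, 6.11 and 6.71. The same library was high, and the estimate of 0.06 (SE 0.59) was 1.22 without it and -0.33 without 0Q replicate 1. Summed, the 3 mitochondrial enzymes averaged 22.2 ± 9.98 CPM in 0Q against 15.5 ± 1.63 CPM in 100Q (SD, n = 3 each). The sums overlapped, at 13.6 to 33.1 CPM in 0Q and 14.1 to 17.3 CPM in 100Q. Their median estimate was -0.65, with 1 above 0 and 2 below, beside -0.05 for the 3 cytosolic enzymes. Hars1 and Hars2 share 198 exon bases on opposite strands, and Yars2 shares 3594 with Dnm1l, Yars1 1536 with Nhsl3 and Nars2 304 with a long non-coding RNA gene, also on opposite strands. Strandedness is not given, so reads in these stretches are uncertain.

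**Figure D4:**
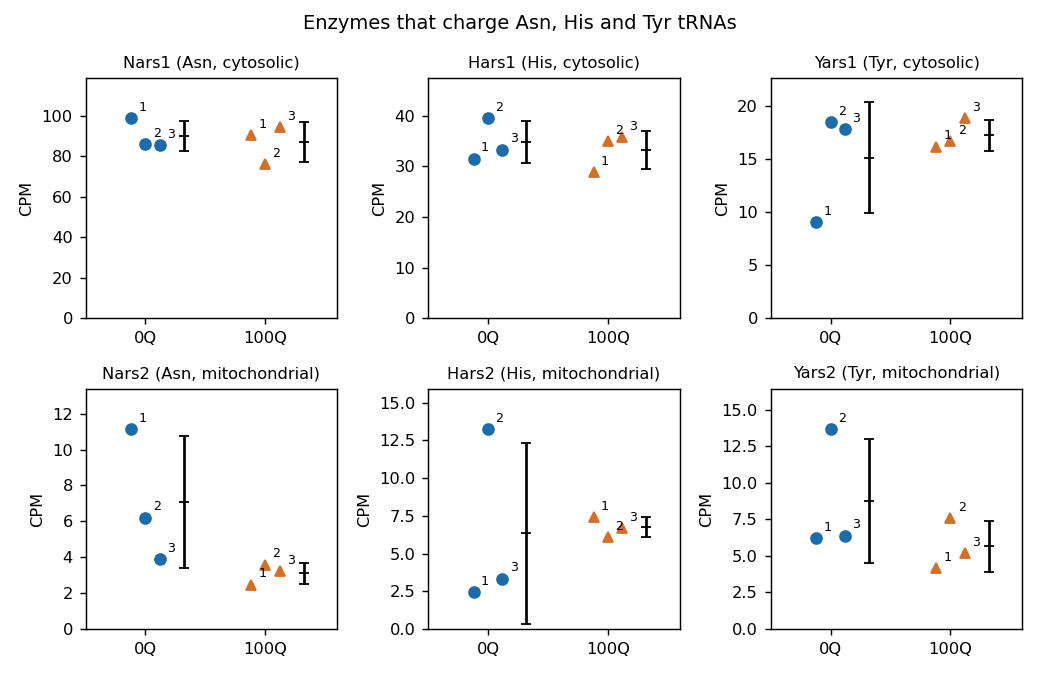
CPM (vertical axis, from 0) of the 6 enzymes for Asn, His and Tyr in each library, with replicate numbers beside the points, and the mean and SD of each group (n = 3) at the right of its points. Groups overlap except for Nars2, and 0Q replicate 2 is the high library of Hars2 and Yars2, at 13.3 and 13.7 CPM.

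Of the 19 cytosolic members, 9 had estimates above 0 and 10 below (median -0.02), and 17 lay within 0.35 of 0. The others were Tars1 and Cars1. Tars1 (Thr) gave 28.9, 15.4 and 23.3 CPM without queuine and 12.7, 12.4 and 17.8 with it. Its groups overlapped through 0Q replicate 2, and the estimate was -0.64 (SE 0.34, edgeR unadjusted p = 0.0769), or -0.41 without 0Q replicate 1. Cars1 (Cys) gave 9.44, 4.79 and 6.11 CPM against 11.03, 12.6 and 9.301. The overlap was narrow, between 0Q replicate 1 and 100Q replicate 3, and the estimate of 0.69 (SE 0.44) was the highest of all members. Outside the complex, Vars1 stood at 0.31 (SE 0.86), Wars1 (Trp) at 0.16, Sars1 at 0.07, Aars1 at 0.03 and Gars1 (Gly) at -0.02. Sars1 stood at 0.28 and Gars1 at -0.32 without 0Q replicate 1, and Aars1 at 0.39 without 0Q replicate 2. Aars1 shares 1326 exon bases with Exosc6 on the same strand.

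In the multisynthetase complex, estimates for 3 members lay above 0 and for 4 below (median -0.12). They ran from -0.33 (SE 0.19) in Qars1 to 0.07 (SE 0.21) in Lars1 (Leu), with Kars1 at -0.27, Iars1 at -0.24, Mars1 (Met) at -0.12, Rars1 at 0.03 and Eprs1, a fused enzyme for Glu and Pro, at 0.04. Without 0Q replicate 1 the Qars1 estimate was -0.10. Mars1 shares 3576 exon bases with Ddit3, an amino acid response gene on the opposite strand. Precision followed abundance over the whole family. For the 13 members at 20 CPM or more, 95% intervals lay within 2-fold of no change for 13 and within 1.5-fold for 8, while for the 19 tested members below 20 CPM they lay within 2-fold for 5.

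Phenylalanyl-tRNA synthetase supplied the other members without overlap. Farsa, its cytosolic alpha subunit, gave 13.8, 13.8 and 12.2 CPM without queuine and 11.98, 11.2 and 11.6 with it. All 100Q libraries were lower, by as little as the gap from 12.2 to 11.98 CPM, and the estimate was -0.20 (SE 0.35). Farsb stood at -0.23 (SE 0.15, 95% interval -0.55 to 0.10), or -0.11 without 0Q replicate 1. It shares 1348 of its 5316 exon bases with Sgpp2 on the opposite strand. Fars2, the mitochondrial enzyme, gave 10.2, 10.6 and 8.61 CPM against 11.8, 12.2 and 11.7. All 100Q libraries were higher, and the estimate was 0.28 (SE 0.37), so for Farsa and Fars2 it was smaller than its error.

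Of the 13 tested mitochondrial members, 6 had estimates above 0 and 7 below (median -0.01). Ears2 (Glu) had 12, 41 and 10 counts in 0Q against 1, 0 and 52 in 100Q, which is 2.27, 5.78 and 2.78 CPM against 0.190, 0 and 2.75. The deepest library, 100Q replicate 3, made the groups overlap, and the estimate of -1.67 (SE 1.03) was -4.90 without it. Mars2 (Met) gave 5.29, 3.24 and 8.33 CPM against 1.71, 3.79 and 4.12, an estimate of -0.77 (SE 0.63) with overlapping groups, and -0.39 without 0Q replicate 3. Wars2 (Trp) gave 4.15, 1.55 and 0.556 CPM against 2.28, 2.95 and 3.43. Its highest library was 0Q replicate 1, and the estimate of 0.45 (SE 0.84) was 1.39 without it and 0.04 without 0Q replicate 3. Iars2 (Ile) gave 13.2, 16.9 and 13.9 CPM against 14.4, 23.2 and 17.6, an estimate of 0.32 (SE 0.33) with overlapping groups, and 0.12 without 100Q replicate 2. The remaining estimates were 0.19 for Tars2, 0.04 for Lars2, -0.01 for Rars2, -0.04 for Pars2 (Pro) and -0.15 for Cars2. Rars2 (Arg), the most abundant mitochondrial member per kilobase, averaged 30.7 ± 12.6 CPM without queuine and 30.4 ± 1.61 with it (SD, n = 3 each), and its estimate was 0.38 without 0Q replicate 1.

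As sums, cytosolic enzymes took 994 ± 90.3 CPM in 0Q against 927 ± 93.4 in 100Q, and mitochondrial enzymes 122 ± 10.7 against 119 ± 7.44 (SD, n = 3 each), so neither sum differed by more than 1 SD. By structural class, the 17 tested class I members had a median estimate of 0.03 and the 14 tested class II members -0.04, with the fused Eprs1 in neither.

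Genes that work with the synthetases gave 0 calls as well. Tars3, a paralog of Tars1 outside the chosen set, had 0, 25 and 2 counts in 0Q against 31, 37 and 57 in 100Q. Only 0Q replicate 2 reached the range of the 100Q group in CPM (0, 3.53 and 0.556 against 5.89, 7.79 and 3.01), and the fitted estimate, which depends on a library at 0, was 1.92 (SE 0.94, 95% interval -0.07 to 3.90). All 15 scaffold proteins and accessory enzymes of charging were tested, 6 with estimates above 0 and 9 below (median -0.05). Eef1e1, a complex scaffold with the highest CPM of that list, averaged 163 ± 19.6 CPM without queuine and 152 ± 8.93 with it (SD, n = 3 each). The smallest p-values there belonged to Qrsl1, a subunit of the amidotransferase that makes mitochondrial Gln-tRNA, at -0.79 (SE 0.50), and Mtfmt, which formylates mitochondrial Met-tRNA, at -0.70 (SE 0.54).

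Of 26 amino acid response genes 21 were tested, 10 with estimates above 0 and 11 below (median -0.04), and 1 was at an unadjusted p under 0.05, beside 2.93% of all tested genes. That gene was Vegfa, a growth factor, at 1.96 (SE 0.86), followed by Shmt2, a mitochondrial serine hydroxymethyltransferase, at 1.14 (SE 0.60). Both rested on few reads and their groups overlapped. Vegfa had 8, 4 and 7 counts in 0Q against 7, 46 and 82 in 100Q, and Shmt2 14, 25 and 11 against 57, 30 and 66. Groups did not overlap for 1 of the 21 tested genes, beside 8.24% of all tested genes. That was Asns, at 37.0, 39.2 and 38.9 CPM in 0Q against 30.8, 24.6 and 36.1 in 100Q. Its estimate was -0.32 (SE 0.25). Slc3a2, an amino acid transporter chain with the highest CPM of the list, averaged 481 ± 26.2 CPM in 0Q against 483 ± 31.5 (SD, n = 3 each), and Atf4 itself 104 ± 16.2 against 93.7 ± 18.9. The 4 synthetases with the motif printed above lay on both sides of 0, at 0.19 for Yars1, 0.03 for Aars1, -0.24 for Iars1 and -0.64 for Tars1.

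Members differed widely in their own use of codons read by queuosine tRNAs. The share of NAU among NAU and NAC codons ran from 20.97% in Sars2 and 23.8% in Wars2 to 57.95% in Rars2 and 59.7% in Hars2. Its median was 42.1% in cytosolic and 37.7% in all 16 mitochondrial members, beside 43.6% over 9509 tested genes. The 16 include the 3 untested members, which all lie below 37.7%, with Sars2 at 20.97%, Aars2 at 34.5% and Vars2 at 37.2%. Across the 32 tested members, which share the same libraries, this share and the estimate had a Spearman rho of -0.14. Across the 19 cytosolic members it was -0.31. Both are given as a description, without a test.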

How the data were processed

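The deposited file held expected counts for each gene, made by the authors, 1 column per library and none pooled. The submitters' processing notes name FastQC, STAR, RSEM and the mm39 build. Versions, annotation release and strandedness were not stated in the sources used here. RSEM divides ambiguous reads, so 5.51% to 10.5% of values were not whole (tolerance 0.001), and exons of 25 of the 35 members overlap another gene.

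Gene names came from GENCODE M39 (538 of 57132 identifiers unmatched), and 0 sample columns were unused. Counts were rounded, filtered with filterByExpr, scaled by TMM and tested with robust glmQLFit and glmQLFTest (edgeR 4.0.16, R 4.3.3) over all genes at a Benjamini-Hochberg adjusted p of 0.05. CPM used library sizes over tested genes times the TMM factor. Estimates are log2 fold changes of 100Q over 0Q, and their SE is the estimate's size over the root of F. The edgeR step was tested on simulated data. Every pair of libraries differed by more than sampling noise (chi-square per gene 8.72 to 19.5). Canonical transcript length replaced merged exons after lengths were seen.

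Members and lists were chosen with earlier results of these data known. The rule gave every library for the Asn, His and Tyr enzymes, members without overlap, and the 3 most extreme at each end in level and estimate. Libraries are also given for some other members, chosen after their values were seen. Enzymes for Asp, which the rule names too, are not reported here. Alternatives tried: DESeq2 1.42.0, limma-voom (limma 3.58.1), RLE or total scaling, looser and stricter filters, a replicate block, and leaving out single libraries.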

Additional observations from a re-analysis of the deposited data

How the results depend on the processing

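Synthetases past the threshold numbered 0 in every setting run: DESeq2, limma-voom, other scalings and filters, the replicate block and each library left out. Over all genes the count was 0 in each of these, except 2 without 0Q replicate 1 and 1 without 0Q replicate 2. When single libraries were left out, median log2 estimates ranged from -0.089 to 0.013 for all members, -0.23 to -0.029 for the Asn, His and Tyr enzymes, -0.065 to 0.023 for enzymes of other amino acids, -0.082 to 0.021 for cytosolic and -0.18 to 0.072 for mitochondrial enzymes, -0.18 to 0.024 for accessory genes and -0.023 to 0.075 for amino acid response genes. The cause was not tested. Single-member estimates, none of them called, switched sides of 0 for 43 of 192 values when 1 library was dropped, for 2 of 32 under the replicate block and for 9 of 186 elsewhere. The replicate block left 0 genes called and moved the median over members to 0.02. Deviations of same-numbered libraries correlated at 0.02, 0.10 and -0.02, so the numbers were not taken as pairs. The summed mitochondrial difference was -2.85 CPM, and 0.279 CPM with library totals alone. Amino acids whose cytosolic mRNA was higher in all 6 libraries numbered 12 by canonical transcript, which was chosen after lengths were seen, 11 by merged exons, the length first planned and rerun afterwards as an added alternative, and 10 by coding length. Besides Thr, Cys dropped out by merged exons and by coding length, and Ile by coding length. Intervals were wider for members under 20 CPM, and the part of depth in this was not tested.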

Other observations

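Farsa and Farsb encode partner chains of 1 enzyme, yet per kilobase of canonical transcript Farsb was 9.62 to 12.3 times as abundant in the 6 libraries. By longest coding sequence the ratio was 9.91 to 12.7, and by merged exons 12.8 to 16.3. Vars1, the only cytosolic member for Val, had 102 counts over all libraries. Per kilobase of canonical transcript it stood at 0.483, against 1.32 for Cars1 (Cys), the next lowest cytosolic member, and 33.5 for Rars1 (Arg). These genes were chosen after their values were seen, and the cause was not tested.

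The within-group SD of log2(CPM + 1) was 0.07 for Farsa and 0.10 for Fars2, the lowest of the 35 members, and 0.82 for Lars2 (Leu). Each SD rests on 3 libraries per group, and the lowest counts were 44 for Farsa and 31 for Fars2. The spread that counting alone gives was not computed, so the low values are not read as a trait of these genes. Lars2 gave 6.99, 13.4 and 20.6 CPM without queuine and 18.3, 18.7 and 5.602 with it, from 37 or more counts in each library, so both groups were wide.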
